A study of Homo sapiens with 3 samples.

Results

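The broad binding sites of XPB and XPD in HT1080 cells were the peaks at least 2000 bp wide. Of 36125 peaks in both lists, 585 met this width: 254 of 21555 XPB peaks and 331 of 14570 XPD peaks. These peaks were chosen by their width in 1 library, so their widths are given as a description, and the score, summit height and summit place that the same library gave them are also descriptions with no test. What the other antibody's list held at the same place did not enter the choice.

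HT1080 is an established human fibrosarcoma line. An antibody to XPB and an antibody to XPD were each used for 1 ChIP-seq library, and both chromatin samples came from a single crosslinked pool that was also the source of an unenriched input library, not used here. Each antibody had 1 library and no replicate, so the lists were described without p-values. Intervals in parentheses are 95% exact binomial intervals for shares, or order-statistic intervals for medians, and they reflect counting error alone: the peaks in a list are not replicates of each other, and amplified copies of a fragment are not separate molecules.

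XPB and XPD are the helicase subunits of the transcription factor TFIIH. XPB acts as a DNA translocase when RNA polymerase II opens a promoter, and XPD unwinds DNA around a lesion in nucleotide excision repair. TFIIH gathers at promoters with the polymerase, and in ChIP-seq a wide interval can hold several neighbouring places of binding that the caller reports under a single summit.

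Each peak has an interval, a score, by the usual MACS layout the caller's p-value as -10 × log10, and a summit, the position with most fragments, whose height counts those fragments. Neither the score nor the height was scaled to the depth of the library, which is unknown from the lists, so neither was compared between antibodies as an absolute level. Positions are 1-based hg19 coordinates, and genes are not named because no hg19 annotation was used.

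Broad peaks were the tail of a continuous spread of widths and made up a larger share of the XPD list. They were 1.18% of XPB peaks (1.04 to 1.33) and 2.27% of XPD peaks (2.04 to 2.53). They covered 617.9 kb for XPB, which was 3.22% of the bases in that list, and 815.9 kb for XPD, which was 5.61%. The median broad width was 2269 bp for XPB (interquartile range 2115 to 2556) and 2288 bp for XPD (2119 to 2594), against 833 and 937 bp over the whole lists.

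Most broad peaks were only a little wider than the minimum. At 3000 bp or more 28 XPB and 38 XPD peaks were left, and at 5000 bp or more 2 and 3. On either side of the minimum the number fell smoothly: 81 XPB and 109 XPD peaks were 1900 to 1999 bp wide, and 56 and 79 were 2000 to 2099 bp wide.

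The peaks next to the minimum on either side were alike in width and ranged widely in score. The XPB peak on chromosome 3 from 134032928 to 134034927 was 2000 bp wide, with a score of 483.8 and a height of 12. The XPB peak on chromosome 1 from 247578233 to 247580231 was 1999 bp wide, with a score of 716.2 and a height of 35. In the XPD list the peak on chromosome 3 from 128101548 to 128103547 was 2000 bp wide with a score of 477.7, and that on chromosome 5 from 1280755 to 1282751 was 1997 bp wide with a score of 301.2.

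**Figure D1:**
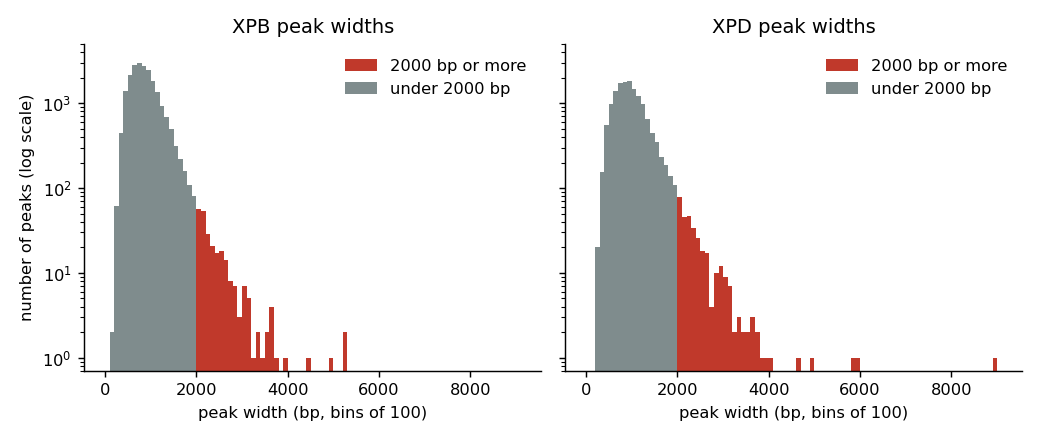
Number of peaks (log scale) by width in bins of 100 bp, XPB on the left and XPD on the right, with peaks of 2000 bp or more in red and narrower ones in grey. The counts fall without a break at 2000 bp, and the widest XPD peak, 8944 bp, stands apart from the others.

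The larger number in the XPD list depended on how intervals were delimited. XPD peaks were wider in general, and the XPB width at the same rank share as 2000 bp in the XPD list was 1762 bp. That width was reached by 493 XPB peaks, a number that the share itself fixes. When intervals of the same list less than 500 bp apart were joined, 684 XPB and 608 XPD stretches reached 2000 bp, so the order of the lists turned round. Of these stretches, 504 XPB and 342 XPD ones were made of several listed peaks. The longest joined XPB stretch was 9746 bp of 5 peaks on chromosome 21 from 9867117 to 9876862, and the longest XPD one was 9841 bp of 4 peaks on chromosome 2 from 91799874 to 91809714. The equal rank share and the joining were added with the values known.

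The widest sites lay in a few places, and most of them were wide in both lists. The widest XPD peak, on chromosome 2 from 91813095 to 91822038, was 8944 bp, scored 1149 and had a summit of 34 fragments. It overlapped the XPB peak from 91815079 to 91819487, which was 4409 bp wide with 25 fragments at its summit and the fourth widest of its list. The widest XPB peak lay nearby, on chromosome 2 from 91802301 to 91807585. It was 5285 bp wide, scored 713.1 with a summit of 27 fragments, and XPD had it as 2 peaks of 2984 and 2343 bp.

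The same stretch of chromosome 2, which hg19 places close to the centromere, held another of the 5 widest XPD peaks. It ran from 91759622 to 91764313 (4692 bp, height 25) and overlapped 2 XPB peaks. The XPB peak from 91759620 to 91762738 was 3119 bp wide (height 16), with its summit 2965 bp from the XPD one, and that from 91762800 to 91764222 was 1423 bp wide (height 22), with its summit 891 bp away.

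On chromosome 20 a site was wide in both lists, with summits at almost the same position. XPB covered 4940 bp from 33890555 to 33895494 with a score of 2123 and 32 fragments, and XPD covered 5849 bp from 33891517 to 33897365 with a score of 2076 and 41 fragments. The summits were 26 bp apart. On chromosome 19 the XPD peak from 49375346 to 49380275 was 4930 bp wide, with a score of 2020 and a height of 29, and overlapped 3 XPB peaks of 2774, 1234 and 1673 bp, the first of them also broad.

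Other wide sites were divided, narrow or missing in the other list. The XPB peak on chromosome 1 from 17035800 to 17041059 was 5260 bp wide with 22 fragments, and XPD had 3 peaks of 2362, 903 and 1414 bp there. The XPD peak on chromosome 5 from 14036515 to 14042479 was 5965 bp wide with 18 fragments, while the XPB peaks over it were 626 and 977 bp wide. The fifth widest XPB peak, on chromosome 7 from 62404 to 66361, was 3958 bp with 11 fragments and had no XPD peak over it, the nearest XPD summit being 20253 bp away.

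Broad peaks had much higher scores than narrower ones, with summits only a little taller. Score, height and width come from the same fragments, so they are not independent of each other. Scores had a median of 544.6 in broad and 188.7 in narrower XPB peaks, and of 404.8 in broad and 183.8 in narrower XPD peaks. Scores of 300 or more were held by 232 of the 254 broad XPB peaks (91.3%), against 13.4% of narrower ones, and by 249 of the 331 broad XPD peaks (75.2%), against 10.4% of narrower ones. The median height was 15 fragments for broad XPB peaks and 11 for narrower ones, and 16 and 13 in the XPD list.

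At scores of 300 and over the broad summits were lower than those of narrower peaks of the same score. Over all bins, narrower peaks weighted to the broad peaks' make-up over 6 score bins had a median height of 19 fragments for XPB and 18 for XPD. The broad peaks had 15 (14 to 16) and 16 (15 to 16), which is 0.789 (0.737 to 0.842) and 0.889 (0.833 to 0.889) of that height. In the bin of 600 and over the broad medians were 20 for XPB and 24.5 for XPD, against 28 and 42 for narrower peaks. At 400 to 600 they were 13 and 16, against 18 and 20. At 300 to 400 they were 11 and 14, against 15 and 16. Below 300 this order did not hold. The XPB medians from the lowest bin up were 11, 16 and 13 for broad peaks, against 10, 11 and 13 for narrower ones, and the XPD medians were 13, 13.5 and 13, against 12, 13 and 15. These bins held 22 broad XPB and 82 broad XPD peaks. Broad peaks grew more common with score, from 0.64% of XPB and 3.11% of XPD peaks at 250 to 300 to 22.5% and 32.0% at 600 and over.

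**Figure D2:**
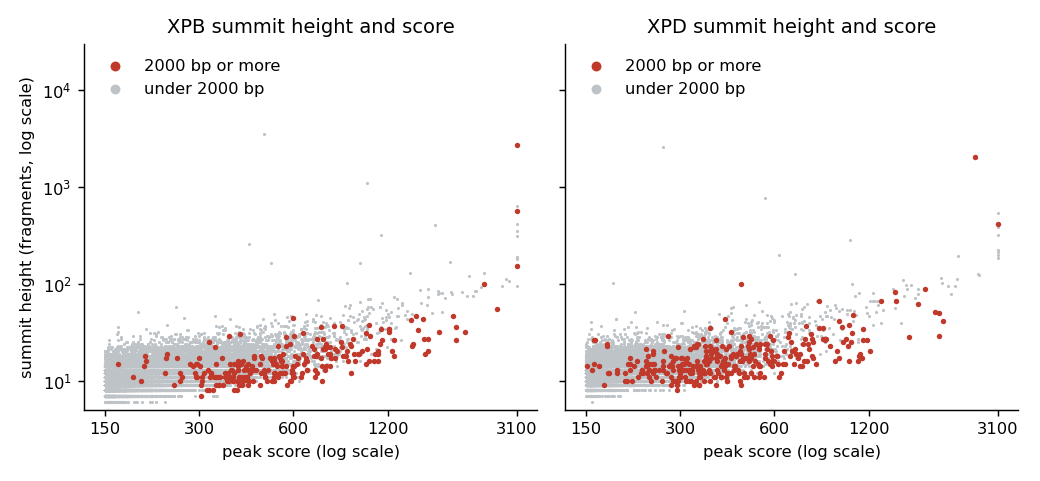
Summit height in fragments against peak score, both on log scales, with peaks of 2000 bp or more in red over narrower ones in grey, XPB on the left and XPD on the right. At scores of 300 and over the broad peaks have lower median heights than narrower ones, though some lie well inside the cloud. A few tall sites stand out, such as the one with 2728 XPB and 2050 XPD fragments.

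Summits of 50 or more fragments were found at 5 broad XPB and 11 broad XPD peaks. At 188 (74.0%) and 232 (70.1%) the summit stayed under 20. Narrower peaks were not counted this way. Their median heights, 11 and 13, were also under 20, so low summits are not particular to broad peaks. The lowest broad summits were 7 and 8. The tallest broad summit was on chromosome 21, from 9825441 to 9827797 for XPB with 2728 fragments and from 9825432 to 9827815 for XPD with 2050. The next was on chromosome 1, from 149222589 to 149224856 with 561 XPB fragments and from 149222595 to 149224954 with 418 XPD fragments, at the highest score the files hold, 3100, in both lists. Summits at these sites were 7 and 3 bp apart, and each site was broad for both helicases. Copy number, mappability and input coverage were not measured at these sites, and their part in the tall summits was not tested.

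The other tall or high-scoring broad XPB peaks were also found with XPD. On chromosome 11 from 62608215 to 62610349 XPB had 153 fragments at a score of 3100, and XPD had 222 fragments over 1854 bp. On chromosome 12 from 7051833 to 7054176 XPB had 99 fragments at a score of 2445, and XPD had 2 peaks of 1047 and 1540 bp, the wider with 79 fragments. On chromosome 6 from 30710593 to 30713158 XPB had 55 fragments at a score of 2673, and XPD had 51 over 2634 bp.

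Some tall broad XPD peaks were narrow for XPB. On chromosome 21 from 9698612 to 9700626 XPD had 99 fragments, and the XPB peak had 101 over 1140 bp. On chromosome 1 from 17222049 to 17224094 XPD had 88 fragments, and XPB had 96 over 1296 bp. On chromosome 19 from 38493429 to 38495733 XPD had 83 and XPB 49 over 1833 bp. These summits lay at most 18 bp apart, while the listed widths differed. The fifth broad XPD peak by score, on chromosome 1 from 149857711 to 149860365, scored 2018 with 50 fragments, and the XPB peak there was also broad, at 2073 bp with 43 fragments.

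The next comparison was whether a site broad for 1 helicase was bound, and broad, for the other. Most broad sites had a peak in the other list. Of broad XPB peaks, 206 of 254 (81.1%, 75.7 to 85.7) overlapped an XPD peak by at least 1 bp, against 26.6% of all XPB peaks. Of broad XPD peaks, 277 of 331 (83.7%, 79.3 to 87.5) overlapped an XPB peak, against 38.7% of all XPD peaks. Narrower peaks of the same score overlapped in 80.7% for both lists, so once score was held alike the share differed by 0.39 percentage points for XPB and 3.01 for XPD, less than the counting error. A wide interval meets this rule more easily than a narrow one.

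Sites broad in 1 list were wider than usual in the other. Where a broad XPB peak overlapped XPD, the XPD peak had a median width of 1792 bp (1623 to 1921), against 1174 bp at narrower XPB peaks of the same score. Where a broad XPD peak overlapped XPB, the XPB peak had a median of 1516 bp (1438 to 1622), against 1105 bp. A peak of 2000 bp or more in the other list lay over 82 broad XPB peaks (32.3%, 26.6 to 38.4), against 6.48% of narrower ones of the same score and 1.62% of all XPB peaks. For broad XPD peaks the number was 83 (25.1%, 20.5 to 30.1), against 4.31% of narrower ones of the same score and 1.70% of all XPD peaks. The lengths of these intervals favour overlap as well, which was not corrected for.

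Breadth in both lists was still the less common case. Of the broad XPB peaks, 124 (48.8%) met only narrower XPD peaks and 48 (18.9%, 14.3 to 24.3) met none. Of the broad XPD peaks, 194 (58.6%) met only narrower XPB peaks and 54 (16.3%, 12.5 to 20.7) met none. Partners under 1000 bp, in the range of ordinary peaks, lay at 30 of 206 overlapped broad XPB and 48 of 277 overlapped broad XPD peaks. Such partners were not counted for narrower peaks of the same score, whose partners had median widths of 1174 and 1105 bp. Over the 5536 pairs of peaks with their largest overlap in each other, 79 were broad in both lists, 123 only for XPB and 197 only for XPD. The XPD peak was the wider of the pair in 58.3% of all these pairs, and Spearman's rho between the widths was 0.47, a description across pairs that come from a shared chromatin pool.

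**Figure D3:**
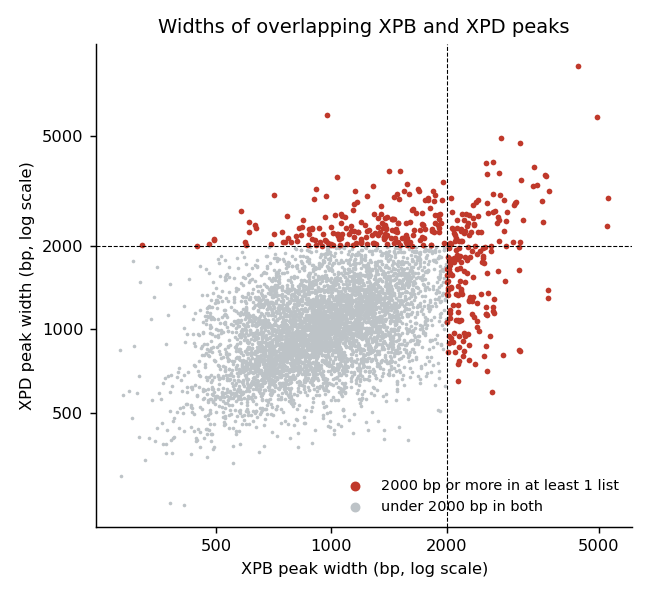
Width of the XPD peak against width of the XPB peak, both in bp on log scales, for 5536 pairs with their largest overlap in each other, with pairs broad in at least 1 list in red and dashed lines at 2000 bp. Only 79 pairs lie past both lines, while 123 are past the XPB line alone and 197 past the XPD line alone.

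A minority of broad intervals overlapped several peaks of the other list. At least 2 XPD peaks overlapped 39 broad XPB peaks (15.4%, 11.2 to 20.4), against 3.22% of narrower ones of the same score and 0.631% of all XPB peaks. At least 2 XPB peaks overlapped 70 broad XPD peaks (21.1%, 16.9 to 25.9), against 4.601% of narrower ones of the same score and 1.51% of all XPD peaks. The most was 3 in either list, and a longer interval meets more peaks. Where there were several, the outermost of their summits lay a median of 1428 bp (XPD summits) and 1503 bp (XPB summits) apart. Besides the site on chromosome 19 above, the highest-scoring such intervals with 3 were the XPD peak on chromosome 11 from 65678345 to 65681356, which overlapped XPB peaks of 1595, 1459 and 1410 bp, and the XPB peak on chromosome 14 from 75083848 to 75086971, which overlapped XPD peaks of 1783, 722 and 3453 bp, some only at its edge. The other list covered a median of 78.0% of an overlapped broad XPB peak (interquartile range 52.4 to 94.9) and 70.5% of an overlapped broad XPD peak (49.4 to 91.4).

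The broad peaks without a partner were the weaker ones. They had median scores of 399.3 (XPB) and 279.0 (XPD), against 599.8 and 437.1 for broad peaks with a partner, and none had a summit over 18 fragments for XPB or 24 for XPD. At scores of 600 and over, 103 of 105 broad XPB peaks and 74 of 74 broad XPD peaks had a partner. Narrower peaks in this bin were alike, at 354 of 361 and 157 of 157. Their share with a partner also rose with score, from 13.3% for XPB and 24.9% for XPD at 150 to 200. The 2 broad XPB exceptions were the 3958 bp peak on chromosome 7 (score 702.9) and a 2634 bp peak on chromosome 17. The latter ran from 37308564 to 37311197 and scored 699.5 with 18 fragments. The next XPB peaks without XPD scored 599.2 (chromosome 16, 29835589 to 29837689), 593.7 (chromosome 11, 8738787 to 8740843) and 553.2 (chromosome 5, 281376 to 284576). The one on chromosome 11 had an XPD summit 1283 bp from its own, outside the interval.

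The highest-scoring broad XPD peak without XPB was on chromosome 3 from 139000320 to 139003453, with a score of 479.8, a width of 3134 bp and 11 fragments. The next 4 scored 467.6 (chromosome 17, 38176058 to 38179050), 423.3 (chromosome 3, 194022448 to 194025042), 414.7 (chromosome 12, 110685859 to 110688074) and 390.1 (chromosome 2, 11836204 to 11838604). The summits of these 5 held 9 to 13 fragments. A peak of the other list lay within 10 kb of the summit of 26 of the 48 XPB and 35 of the 54 XPD peaks without a partner. Over all broad peaks, one outside the interval was that near for 62.2 and 70.7%, against 43.3 and 53.5% of narrower peaks of the same score.

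From a score of 300 upward, a fixed window around the summit held the other list's summit less often at broad than at narrower peaks. A wide interval leaves room for an overlapping peak whose summit is over 1000 bp away, and this window leaves such a peak out. By overlap of at least 1 bp the shares were 81.1 against 80.7% for XPB and 83.7 against 80.7% for XPD. A window of 1000 bp on either side of the summit held a summit of the other list for 174 broad XPB peaks (68.5%, 62.4 to 74.2), against 79.0% of narrower ones of the same score and 26.5% of all XPB peaks. For broad XPD peaks it was 243 (73.4%, 68.3 to 78.1), against 79.5% of narrower ones of the same score and 38.5% of all XPD peaks. The differences were -10.5 and -6.06 percentage points. They depended on what was held alike: against narrower peaks of the same summit height the broad shares were higher, by 28.3 and 23.4 points. In both lists the broad share was below the narrower one in every bin from 300 upward. At 400 to 600 it was 48 of 80 broad and 689 of 857 narrower XPB peaks (80.4%), and at 600 and over 86.7% and 96.4%. At 300 to 400 it was 63.0% for broad and 78.3% for narrower XPD peaks.

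**Figure D4:**
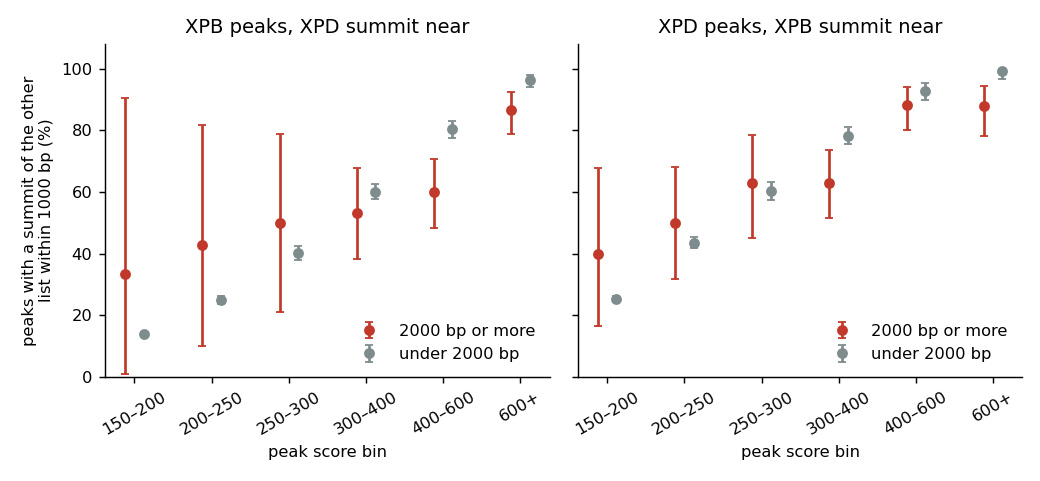
Percentage of peaks with a summit of the other list within 1000 bp of their own, by score bin, with 95% exact binomial intervals, broad peaks in red and narrower ones in grey, XPB peaks on the left and XPD peaks on the right. From 300 upward the red points lie below the grey ones, for example at 86.7 and 96.4% for XPB at 600 and over. Below 300 the red points lie above the grey ones, and the few broad peaks there have wide intervals.

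Within overlapping pairs the summits of the helicases lay further apart when the peak was broad. For broad XPB peaks the distance to the summit of the best overlapping XPD peak had a median of 311.5 bp (152 to 399, 202 pairs), against 45 bp for narrower XPB peaks of the same score. For broad XPD peaks it was 346.5 bp (219 to 437, 276 pairs), against 46 bp. Distances of at most 100 bp were found in 38.1% of the broad XPB and 35.1% of the broad XPD pairs, against 65.3 and 65.1% of the narrower ones. Distances over 1000 bp were found in 38 of the 202 broad XPB and 54 of the 276 broad XPD pairs, with no count given for narrower pairs. A wide interval leaves more room for such distances, and fragments of 400 to 700 bp limit how finely they can be read.

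In the 83 pairings of a broad XPB with a broad XPD peak, made by 82 XPB and 83 XPD peaks, 28 had summits within 100 bp and 20 had summits over 1000 bp apart, with a median of 391 bp. The summits fell on the same side of their interval's midpoint in 46 of the 83, close to an even split. Spearman's rho over these pairs was 0.19 for the place of the summit and 0.50 for the width. Only pairs past 2000 bp in both lists enter these values, which limits the range of widths. Side and place were measured within each list's own interval, so intervals with different ends can put nearly the same summit on opposite sides. On chromosome 20 the summits 26 bp apart lay at 61.6% of the XPB and 36.0% of the XPD interval.

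Summits of broad peaks were less central than those of narrower peaks of the same score, though most lay outside the end stretches. The groups differ in interval length, which was not corrected for. On a scale where 0 is an end of the interval and 1 its middle, the median place was 0.60 (0.54 to 0.65) for broad XPB and 0.58 (0.53 to 0.62) for broad XPD peaks, against 0.68 for narrower XPB and 0.69 for narrower XPD peaks of the same score. The stretches of 20% at either end of the interval together held 71 broad XPB summits (28.0%, 22.5 to 33.9) and 99 broad XPD summits (29.9%, 25.03 to 35.2), against 12.9 and 12.6% at the same score. The summit lay a median of 696.5 bp from the nearer end in broad XPB and 689 bp in broad XPD peaks, against 354 and 367 bp in the narrower ones.

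The 20% with the lower coordinates held more broad summits than the 20% with the higher ones, 43 against 28 for XPB and 62 against 37 for XPD. The same lean was present in narrower peaks of the same score, at 7.22 and 5.71% for XPB and 6.81 and 5.76% for XPD. The most lopsided of the named sites were the XPB peaks on chromosome 2 from 91815079 and chromosome 1 from 17035800, with summits 151 and 233 bp from their start.

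**Figure D5:**
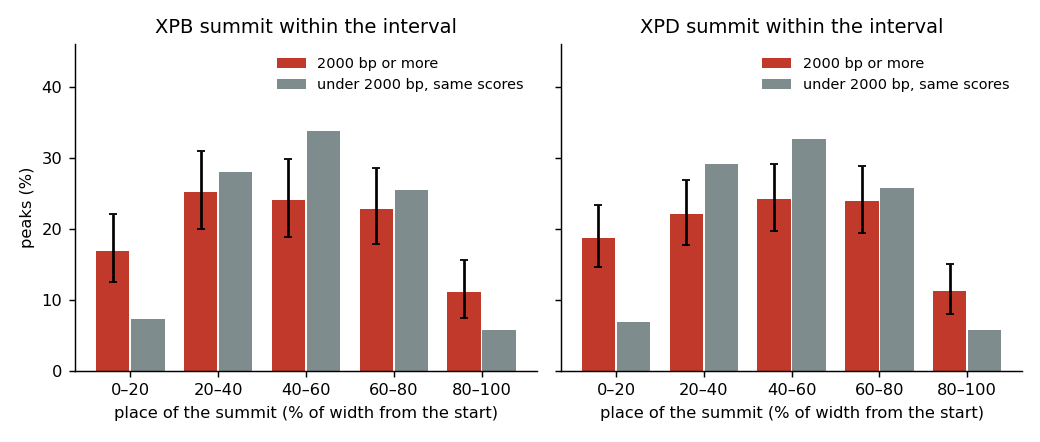
Percentage of peaks by the place of the summit in steps of 20% of the interval, counted from the lower coordinate, for broad peaks in red with 95% exact binomial intervals and for narrower peaks weighted to the same scores in grey, XPB on the left and XPD on the right. The end stretches together hold 28.0% of broad XPB and 29.9% of broad XPD summits, against 12.9 and 12.6% of the narrower ones.

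Broad peaks were found in company. A further XPB summit was present within 10 kb at 183 broad XPB peaks (72.0%, 66.1 to 77.5), against 54.9% of narrower ones of the same score and 41.8% of all XPB peaks. For XPD it was 201 (60.7%, 55.2 to 66.0), against 45.2% at the same score and 34.5% of all XPD peaks. At least 3 such neighbours were found at 59 broad XPB (23.2%) and 60 broad XPD peaks (18.1%), against 14.8 and 9.48%. The most crowded was the XPB peak on chromosome 1 from 16474350 to 16477010, with 9 neighbours.

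Neighbours were also close and included other broad peaks. Another broad peak of the list lay within 10 kb of 27 broad XPB (10.6%, 7.12 to 15.1) and 44 broad XPD peaks (13.3%, 9.83 to 17.4), against 4.12 and 4.47% of narrower peaks of the same score. A gap of at most 500 bp separated 74 broad XPB peaks (29.1%, 23.6 to 35.1) and 65 broad XPD peaks (19.6%, 15.5 to 24.3) from the next interval of their own list, against 17.2 and 12.5%. Peaks of the other list that did not touch the interval lay within 10 kb of 158 broad XPB (62.2%, 55.9 to 68.2) and 234 broad XPD peaks (70.7%, 65.5 to 75.5), against 43.3 and 53.5%.

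Broad peaks were spread over 22 chromosomes for XPB and 21 for XPD, with an excess on chromosome 3. That chromosome held 56 broad XPB peaks (22.0%) and 79 broad XPD peaks (23.9%), but 11.2 and 11.6% of all peaks. At the rates of the other chromosomes for peaks of the same score it would have held 22.5 and 31.9. Chromosome 21 had 10 and 13 broad peaks, where the other chromosomes' rates gave 3.26 and 5.15. The largest shortfalls in number were on chromosome 6, with 5 and 7 where these rates gave 14.8 and 18.5, and, for XPD, chromosome 8, with 2 where they gave 10.7 (4 and 6.62 for XPB). Chromosome 13 had none among 338 XPB and 202 XPD peaks, where they gave 2.75 and 3.01. A count of 0 there allows shares of up to 1.09 and 1.81%, the upper ends of the exact intervals, or 0.888 and 1.49% counted as 3 peaks of the total.

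Chromosome 3 holds peak-dense blocks, runs of 1 Mb windows with at least 5 times the mean peak number of both lists. From 122000001 to 130000000, 12 of 509 XPB peaks (2.36%, 1.22 to 4.08) and 32 of 373 XPD peaks (8.58%, 5.94 to 11.9) were broad. From 193000001 to 198000000 it was 10 of 295 (3.39%, 1.64 to 6.15) and 15 of 269 (5.58%, 3.15 to 9.03). The rest of chromosome 3 had 34 of 1616 (2.1%, 1.46 to 2.93) and 32 of 1054 (3.04%, 2.09 to 4.26), against 1.03% (0.896 to 1.19) and 1.96% (1.73 to 2.21) on the other chromosomes. At scores of 300 or more, the broad share of XPB peaks was 11.25% (5.28 to 20.3) in the first block, 16.3% (7.32 to 29.7) in the second and 12.4% (8.39 to 17.4) in the rest of chromosome 3, against 6.86% (5.94 to 7.87) on the other chromosomes. For XPD peaks it was 37.3% (24.1 to 51.9), 32.4% (17.4 to 50.5) and 19.7% (13.0 to 27.8), against 12.8% (11.2 to 14.6). The intervals of the XPB first and second blocks and of the rest of chromosome 3 for XPD overlap those of the other chromosomes.

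Most of the 185 windows of 1 Mb with a broad XPB peak and the 212 with a broad XPD peak held a single one, 138 and 146. On chromosome 21 from 11000001 to 12000000, which hg19 places close to the centromere, 6 of 13 XPB peaks and 5 of 13 XPD peaks were broad. On chromosome 2 from 91000001 to 92000000 it was 3 of 22 and 7 of 16. On chromosome 3 from 134000001 to 135000000 there were 6 of 61 XPB and 5 of 38 XPD peaks, and on the same chromosome from 128000001 to 129000000 there were 8 of 73 XPD peaks. The copy number, mappability and input coverage of these windows were not measured here, and their part in the width of the peaks was not tested.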

How the data were processed

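ChIP-seq of XPB and of XPD was analysed, 1 library each, grouped by sample title. The submitters' processing notes name hg19, Bowtie 0.12.7 as aligner and MACS 1.4 as caller; the control and caller settings are not given in the sources used here. Protocol text common to the samples names a CSB antibody; the antibody fields of each sample name XPB or XPD and were followed. The deposited score per peak (150 to 3100) and the deposited summit signal, a fragment pileup, were used as listed, with column meanings from the usual MACS layout.

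Broad meant end minus start of at least 2000 bp. Narrower peaks of the same score were all peaks under 2000 bp, weighted to the broad peaks' numbers in 6 score bins with lower edges 150, 200, 250, 300, 400 and 600; each bin used had at least 20 narrower peaks. Peaks were shared at an overlap of 1 bp or more. Neighbours were counted between summits. Named peaks followed a fixed rule: per list the 5 widest, tallest and highest-scoring broad peaks, the 5 highest-scoring without a partner and the peak on either side of 2000 bp; over both lists, the 5 widest pairs and the 3 intervals with most partners. Members and rules were chosen with earlier results of these data known. Functions were tested on simulated lists. No hg19 sequence or annotation was at hand, so the planned base composition and annotation step was not run. Python 3.11.15, numpy 2.4.6, pandas 2.3.3, scipy 1.17.1 and matplotlib 3.10.9 were used.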

Additional observations from a re-analysis of the deposited data

How the results depend on the processing

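Of 55 alternatives, 25 stayed close to the reported value, 28 moved away from it and 2 reversed. Close meant a change no larger than the wider side of the broad peaks' counting interval. For numbers of broad peaks it meant a fixed limit on their ratio. Values are XPB then XPD. The share that overlapped the other list (81.1 and 83.7%) was 55.1 and 54.1% under a reciprocal 50% rule, 42.1 and 44.4% for summits at most 250 bp apart, 63.2 and 68.2% at a width of 1500 bp, 89.3 and 97.4% at 3000 bp, and 67.3 and 74.7% with every peak at 200 or more. The difference for summits within 1000 bp (-10.5 and -6.06 points) was -17.2 and -16.4 with 500 bp, -11.5 for XPD at scores of at least 200, and reversed to 28.3 and 23.4 when narrower peaks were weighted by height. The height ratio (0.789 and 0.889) was 0.875 and 0.667 at 3000 bp, and 0.625 and 0.667 against peaks under 1000 bp. The summit place (0.60 and 0.58) was 0.52 and 0.43 at 3000 bp. The neighbour difference (17.2 and 15.5 points) was 27.1 and 23.7 against peaks under 1000 bp. The partner width (1792 and 1516 bp) was 2058 and 1841 bp with the reciprocal overlap and 2881 and 1870 bp at 3000 bp. Joining intervals gave 684 and 608 broad stretches. The equal rank share gave 493 XPB peaks, a count that the share itself fixes, so it tests nothing about their number. Finer score bins, leaving out chromosome 3 from the overlap share, joining and the rank share were added after seeing the data. No paired analysis was possible because each antibody has 1 library. Unknown depth limits how far narrowness or absence in a list can be read.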
